A study of Mus musculus with 8 samples.

Results

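The 9 genes described here are the gluconeogenic and insulin-responsive genes Pck1, G6pc, Fbp1, Pcx, Tat, Ppargc1a, Foxo1, Irs2 and Igfbp1. They were taken by gene symbol from an Agilent array and were carried by 11 of its 62976 features (spots), Ppargc1a and Foxo1 by a pair of features each and the others by a single one. They are 9 of the 20738 named genes tested. Male CD-1 mice, an outbred stock, ate for 7 days either a diet containing 2500 ppm of NaPB (sodium phenobarbital) or a control diet with 0 ppm, and liver RNA of each diet was hybridised to 4 Cy3 arrays. All animals were male, and the arrays differed by diet alone according to the labels. The sources used here give neither the feeding state nor the hour of sampling, both of which bear on these genes. Whether each array stands for its own animal is not stated, so a p-value reflects the spread among arrays, which may be technical. NaPB replicate 4 and control replicate 1 had the lowest limma array weights, which are estimated from these same values and are given beside the treatment check. NaPB replicate 2 held only 3443 distinct values where the other 7 arrays held 62756 or more. Levels are scaled intensities without a physical unit. A fold change is the log2 level on the NaPB diet minus that on the control diet, with its limma standard error (SE), and a gene was called at a Benjamini-Hochberg adjusted p below 0.05 over all 20738 genes.

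Gluconeogenesis is the route by which liver makes glucose from lactate, glycerol and amino acids during a fast. Its dedicated steps are catalysed by pyruvate carboxylase (Pcx), phosphoenolpyruvate carboxykinase (Pck1), fructose-1,6-bisphosphatase (Fbp1) and glucose-6-phosphatase (G6pc). Glucagon, acting through cAMP, and glucocorticoids raise transcription of Pck1 and G6pc with the help of the coactivator PGC-1α (Ppargc1a) and the forkhead factor FOXO1, whereas insulin removes FOXO1 from the nucleus and so lowers G6pc, Igfbp1 and Irs2. Phenobarbital activates the nuclear receptor CAR, which in mouse liver is known to lower Pck1 and G6pc as well as to induce P450 genes.

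The sequences before the starts of Igfbp1, G6pc, Irs2 and Pck1 are shown because 3 of them hold the core of the insulin response element and the last holds the core of the cAMP response element. They are RefSeq promoters of the GRCm38.p6 mouse assembly, 250 bases ending just before the annotated start, 5′ to 3′ on the strand of the gene: chr11:7197537-7197786 (+) for Igfbp1, chr11:101367466-101367715 (+) for G6pc, chr8:11008930-11009179 (−) for Irs2 and chr2:173152823-173153072 (+) for Pck1. Capitals mark the insulin response core TNTTTTG in Igfbp1, G6pc and Irs2 and the cAMP response core ACGTCA in Pck1, each searched on both strands.
Igfbp1: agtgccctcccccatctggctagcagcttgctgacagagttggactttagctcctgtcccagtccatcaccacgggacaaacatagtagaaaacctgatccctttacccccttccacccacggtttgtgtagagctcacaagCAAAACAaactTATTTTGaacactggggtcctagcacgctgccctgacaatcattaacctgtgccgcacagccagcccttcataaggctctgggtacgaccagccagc
G6pc: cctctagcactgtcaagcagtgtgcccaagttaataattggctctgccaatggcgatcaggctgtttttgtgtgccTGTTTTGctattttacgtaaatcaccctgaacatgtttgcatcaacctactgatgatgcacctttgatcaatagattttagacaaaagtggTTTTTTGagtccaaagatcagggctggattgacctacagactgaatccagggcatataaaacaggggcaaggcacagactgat
Irs2: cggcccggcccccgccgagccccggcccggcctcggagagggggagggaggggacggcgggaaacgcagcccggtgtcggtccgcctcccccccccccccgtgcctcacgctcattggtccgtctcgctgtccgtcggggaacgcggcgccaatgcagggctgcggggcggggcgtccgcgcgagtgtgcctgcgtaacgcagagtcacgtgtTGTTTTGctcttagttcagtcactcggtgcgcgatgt
Pck1: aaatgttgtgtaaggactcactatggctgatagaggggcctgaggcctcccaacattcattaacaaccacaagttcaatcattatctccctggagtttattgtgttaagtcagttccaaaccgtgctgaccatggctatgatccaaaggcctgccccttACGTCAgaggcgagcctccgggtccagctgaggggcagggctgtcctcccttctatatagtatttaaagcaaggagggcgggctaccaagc
All 9 genes matched the promoter table, Pcx with a pair of starts. In Igfbp1 the core lay on opposite strands, at bases 108 to 102 and 97 to 91 before the start, next to each other. G6pc held it at bases 174 to 168 and 83 to 77, and Irs2 at bases 37 to 31. The insulin response core was in 3 of the 9 genes and in 16.9% of 32851 promoters of the same length. The cAMP response core was in 2 of the 9 genes, Pck1 (bases 91 to 86) and Ppargc1a (bases 50 to 45), and in 6.47% of promoters. The forkhead core, searched only as the exact letters TGTTTAC, was in none of the 9 and in 3.17% of promoters. This does not show that these promoters lack sites for forkhead factors. No match shared bases with another in these windows. A match is a run of letters and says nothing about binding in these livers.

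None of the 9 genes passed the test over all genes, while all 9 had a lower mean on the NaPB diet. Irs2 was 2.14-fold lower and G6pc 1.92-fold lower, and these were the 2 members whose diets did not overlap. Igfbp1 had the largest difference of means, 2.27-fold lower, with a spread that crossed between diets. Fbp1 had the smallest difference, a log2 fold change of −0.10. By limma 0 of 9 members were called in either direction, against 0.617% of all genes called lower and 0.391% called higher (1.01% in either direction), and 0 of the 11 features were called when all 62976 features were tested, of which 1.02% were. At an unadjusted p below 0.05, 2 of 9 members were lower (G6pc and Irs2), against 5.77% of all genes, and none was higher, against 4.34%. Diets did not overlap, with NaPB lower, for 2 of 9 members and for 4.31% of all genes, and with NaPB higher for none of the members and for 2.72% of all genes. The log2 fold change was below 0 for 9 of 9 members and for 48.8% of all genes. The median was −0.51 over the members and 0.01 over all genes. No member differed by more than 1.18 log2 units, and with 4 arrays a diet a p that misses the threshold does not show that levels of a member were alike. These genes were measured on the same 8 arrays and are not independent of each other.

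**Figure D1:**
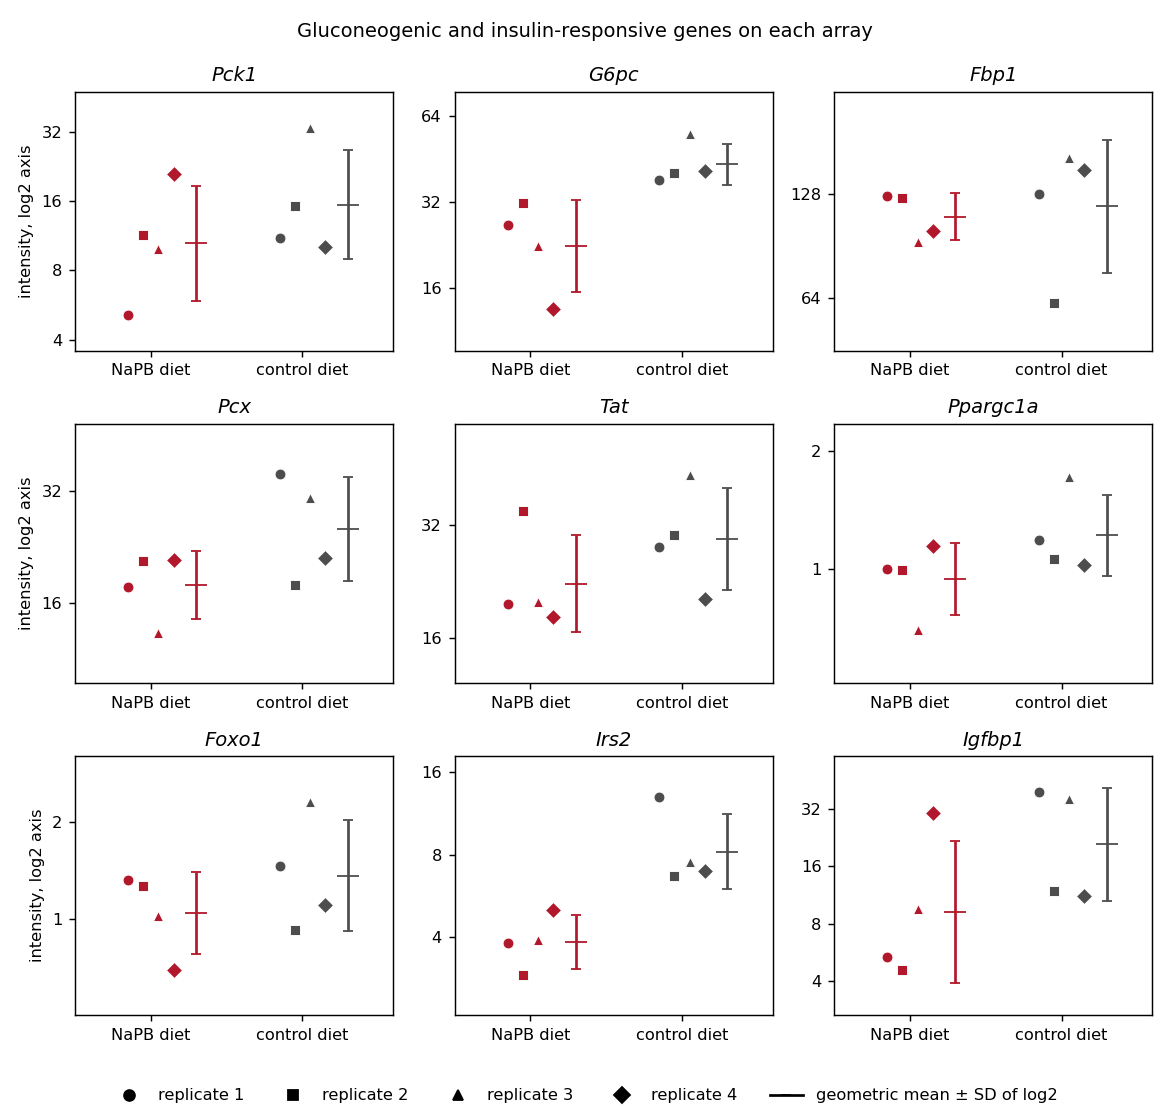
Scaled intensity of the 9 genes (brightest feature, log2 axis, 1 panel a gene) on 4 NaPB-diet arrays, left, and 4 control-diet arrays, right. Symbols mark the replicate number, bars the geometric mean ± SD of log2 values. The diets are separate for G6pc and Irs2 and overlap for the other 7 genes.

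Of the insulin signalling genes, Irs2 encodes insulin receptor substrate 2, the adaptor that carries the signal from the insulin receptor to PI3 kinase in hepatocytes. Its level was 3.81, 2.91, 3.88 and 5.03 on NaPB replicates 1 to 4, against 13.0, 6.67, 7.49 and 6.97 on control replicates 1 to 4. Every NaPB array lay below every control array, and control replicate 1 was well above the other controls. The geometric means were 3.84 on the NaPB diet and 8.21 on the control diet (log2 SD 0.32 and 0.45, n = 4 each). The log2 fold change was −1.10 ± 0.31 (SE), with a 95% interval of −1.78 to −0.42, an unadjusted p of 0.00457 and a limma adjusted p of 0.167. Weighting the arrays by their quality in limma gave −1.001 with an adjusted p of 0.0363, the single alternative in which a member was called. Leaving out control replicate 1 gave −0.87.

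Igfbp1 encodes a liver-secreted binding protein of insulin-like growth factors whose transcription insulin suppresses. The level was 5.36, 4.56, 9.54 and 30.2 on NaPB replicates 1 to 4, against 39.1, 11.9, 35.9 and 11.2 on control replicates 1 to 4. NaPB replicates 1 to 3 lay below all controls, while NaPB replicate 4 lay above 2 of the 4 controls. Control replicates 1 and 3 were about alike and well above control replicates 2 and 4. On the log2 scale the difference was −1.18 ± 0.63 (SE), 95% interval −2.58 to 0.21 (limma adjusted p = 0.608). Without NaPB replicate 4 it was −1.76 (adjusted p = 0.164), and without NaPB replicate 2 it was −0.85.

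Foxo1 encodes the forkhead factor that insulin signalling inactivates. Its brighter feature read 1.32, 1.27, 1.03 and 0.700 on NaPB replicates 1 to 4, against 1.46, 0.928, 2.31 and 1.11 on control replicates 1 to 4. The diets overlapped, with the highest value on control replicate 3 and the lowest on NaPB replicate 4. The brighter feature had a log2 fold change of −0.38 ± 0.35 (SE; adjusted p = 0.799 by limma), which was −0.13 without control replicate 3 and −0.19 without NaPB replicate 4. Its other feature read 0.738, 0.760, 0.494 and 0.430 on NaPB replicates 1 to 4, against 0.986, 0.645, 1.32 and 0.773 on control replicates 1 to 4. In the fit over all features it differed by −0.61 ± 0.33 (SE; adjusted p = 0.643), in the same direction.

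Among the enzymes, G6pc encodes the catalytic subunit that releases free glucose in the last step of gluconeogenesis and of glycogen breakdown. It read 26.6, 31.8, 22.5 and 13.5 on NaPB replicates 1 to 4, against 38.2, 40.4, 55.3 and 41.1 on control replicates 1 to 4. No NaPB array reached the lowest control, and NaPB replicate 4 was the lowest of all. The geometric means were 22.5 on the NaPB diet and 43.3 on the control diet (log2 SD 0.53 and 0.24, n = 4 each). On the log2 scale G6pc differed by −0.94 ± 0.32 (SE), with a 95% interval of −1.64 to −0.25, an unadjusted p of 0.0126 and a limma adjusted p of 0.278. With 1 array left out it ran from −1.11 to −0.70, the smaller difference being the one without NaPB replicate 4.

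Pck1 encodes cytosolic phosphoenolpyruvate carboxykinase, which turns oxaloacetate into phosphoenolpyruvate. Its level was 5.11, 11.4, 9.91 and 20.9 on NaPB replicates 1 to 4, against 11.1, 15.3, 33.4 and 10.1 on control replicates 1 to 4. The diets overlapped widely: the lowest value was on a NaPB array and the highest on a control array, and NaPB replicate 4 exceeded 3 of the 4 controls. Pck1 had a log2 fold change of −0.56 ± 0.48 (SE), 95% interval −1.63 to 0.51 (limma adjusted p = 0.784). It was −0.89 without NaPB replicate 4, −0.21 without NaPB replicate 1 and −0.19 without control replicate 3, so that its size depended on single arrays.

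Fbp1 encodes fructose-1,6-bisphosphatase, which removes a phosphate from fructose-1,6-bisphosphate. It read 127, 125, 93.2 and 99.98 on NaPB replicates 1 to 4, against 129, 61.8, 163 and 151 on control replicates 1 to 4. The NaPB arrays lay within the range of the controls, whose replicate 2 was the lowest of all. Fbp1 had a log2 fold change of −0.10 ± 0.34 (SE; adjusted p = 0.953 by limma), with a 95% interval of −0.85 to 0.65, which leaves room for a difference of either sign. It changed sign without control replicate 3 (0.05) and without control replicate 4 (0.02), and was −0.41 without control replicate 2.

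Pcx encodes pyruvate carboxylase, the mitochondrial enzyme that starts gluconeogenesis from pyruvate. It read 17.6, 20.7, 13.3 and 20.9 on NaPB replicates 1 to 4, against 35.5, 17.8, 30.7 and 21.1 on control replicates 1 to 4. Control replicates 1 and 3 were well above all NaPB arrays, control replicate 4 was just above the highest of them, and control replicate 2 lay among them. The log2 fold change was −0.51 ± 0.31 (SE), 95% interval −1.18 to 0.17 (limma adjusted p = 0.684).

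Tat encodes tyrosine aminotransferase, a glucocorticoid- and cAMP-responsive enzyme of amino acid breakdown. It read 19.7, 34.8, 19.9 and 18.1 on NaPB replicates 1 to 4, against 28.0, 30.1, 43.7 and 20.3 on control replicates 1 to 4. NaPB replicates 1, 3 and 4 lay below all controls, and NaPB replicate 2 above 3 of them. Tat had a log2 fold change of −0.40 ± 0.33 (SE), 95% interval −1.12 to 0.32 (limma adjusted p = 0.775). It was −0.61 without NaPB replicate 2 and −0.21 without control replicate 3.

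Ppargc1a encodes PGC-1α, the coactivator that fasting induces in liver. Its brighter feature read 1.001, 0.996, 0.698 and 1.14 on NaPB replicates 1 to 4, against 1.18, 1.06, 1.72 and 1.02 on control replicates 1 to 4. The values overlapped, with NaPB replicate 3 the lowest and control replicate 3 the highest. That feature had a log2 fold change of −0.37 ± 0.28 (SE; adjusted p = 0.759 by limma), which was −0.20 without control replicate 3 and −0.22 without NaPB replicate 3. The other feature lay within 2 times the lowest value of its array on all 8 arrays and gives no measure of this gene.

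**Figure D2:**
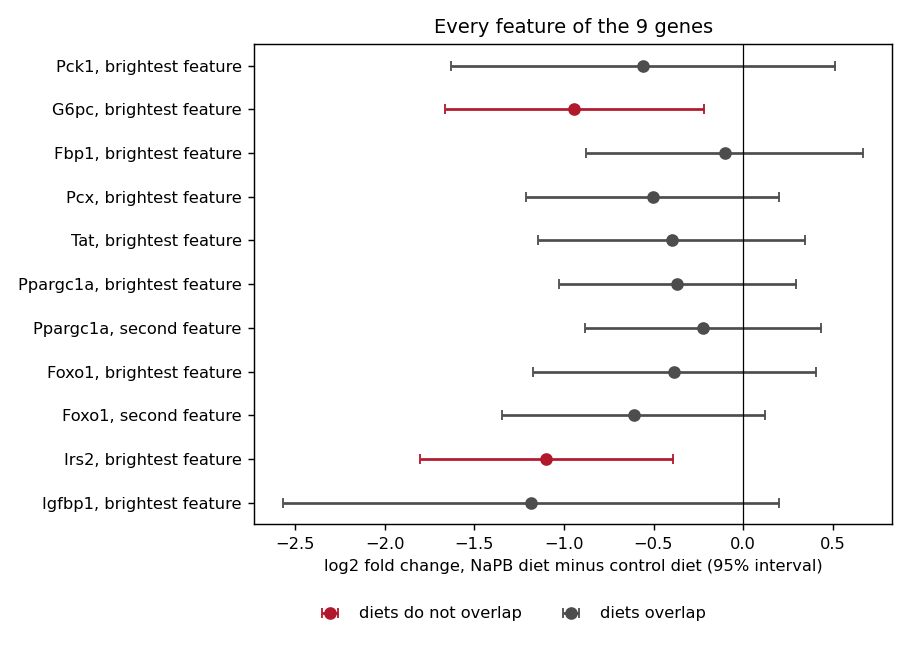
Log2 fold change (NaPB diet minus control diet) of all 11 features with 95% intervals from the limma fit over all features, 4 arrays a diet. All points lie below 0, and the intervals leave out 0 for G6pc and Irs2 alone. These intervals are not adjusted for the number of features.

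The pattern of the members differed between arrays of the same diet. Against the control mean, 8, 7, 9 and 7 of the 9 genes were lower on NaPB replicates 1 to 4. On control replicates 1 to 4, 4, 8, 1 and 8 of the 9 were below that mean. The median difference of the members was −0.58, −0.29, −0.80 and −0.28 log2 units on NaPB replicates 1 to 4 and 0.10, −0.30, 0.50 and −0.26 on control replicates 1 to 4. By this median control replicates 2 and 4 lay about where NaPB replicates 2 and 4 did, and control replicate 3 was the highest array. NaPB replicate 4 stood apart within the members. It had the lowest G6pc (−1.68) and Foxo1 (−0.96) of the NaPB arrays, but Pck1 (0.44) and Igfbp1 (0.54) above the control mean, where NaPB replicates 1 to 3 had Pck1 at −1.60, −0.43 and −0.64 and Igfbp1 at −1.96, −2.19 and −1.12. Irs2 was below the control mean on every NaPB array (−1.11, −1.50, −1.08 and −0.71), as were G6pc, Pcx, Ppargc1a and Foxo1.

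**Figure D3:**
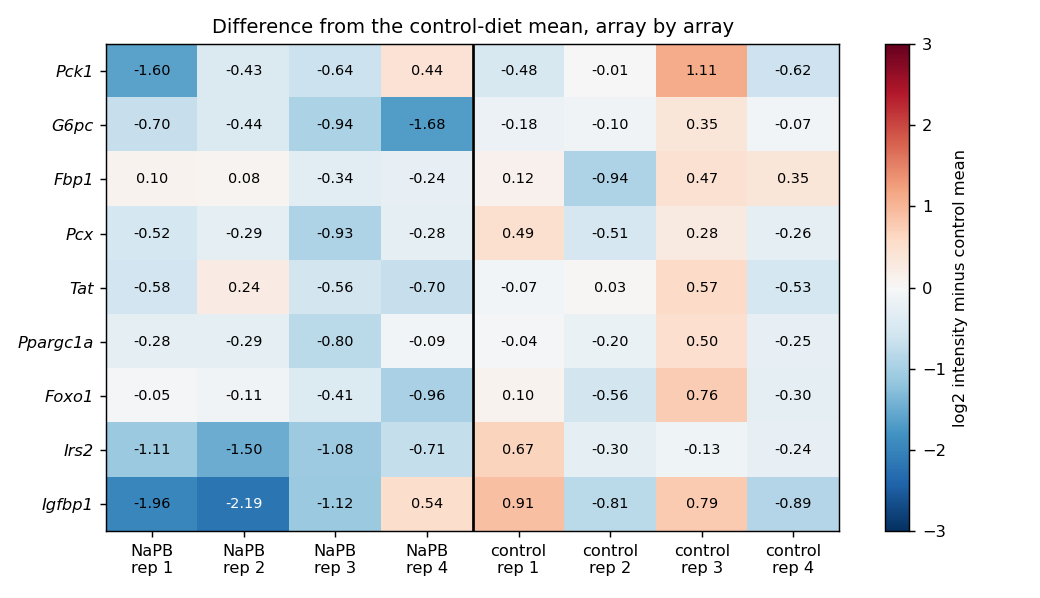
Log2 intensity minus the control-diet mean for the 9 genes (rows) on 4 NaPB-diet arrays and 4 control-diet arrays (columns), printed in each cell, with blue lower and red higher. G6pc and Irs2 are blue on all 4 NaPB arrays, Pck1 and Igfbp1 are light red on NaPB replicate 4, and most genes are red on control replicate 3.

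The treatment itself was visible on every NaPB array: Cyp2b10, the P450 gene classically induced by phenobarbital, read 521, 491, 430 and 77.7 on NaPB replicates 1 to 4, against 3.72, 0.863, 2.98 and 5.22 on control replicates 1 to 4 (log2 fold change 6.84 ± 0.69, limma adjusted p = 0.0018). The induction was smallest on NaPB replicate 4. That array and control replicate 1 had the lowest array weights (0.313 and 0.308, the others 1.14 to 1.98), and the array median correlations with the others were 0.931 and 0.914, the rest 0.933 to 0.95. Markers of hepatocytes were measured on all arrays. Of 6 with a feature, 4 had a log2 fold change below 0 and none was called, and their summed intensity ran from 3649 to 5740 on NaPB arrays and from 4509 to 7578 on control arrays. Among them Alb, the albumin gene, differed by −1.24 ± 0.36 and Apoa1, an apolipoprotein gene, by −1.0005 ± 0.28 (SE; adjusted p = 0.19 and 0.167), both with no overlap between diets, as for G6pc and Irs2. Serpina1a, the third by p, differed by −0.37 ± 0.28 with overlapping diets (adjusted p = 0.756), and the median over the 6 markers was −0.28. Of 5 Kupffer cell markers 4 were below 0 and none was called, with sums of 15.0 to 17.9 on NaPB arrays and 19.9 to 24.5 on control arrays. Of 4 neutrophil markers 1 was called, S100a8, at 46.3, 126, 71.0 and 2.02 on NaPB replicates 1 to 4 against 0.246 to 0.464 on control arrays (6.43 ± 1.04, adjusted p = 0.0176). Without NaPB replicate 4 the difference was 7.74, and the call was lost without control replicates 1, 2 or 3 or NaPB replicates 1 or 3 (adjusted p = 0.0506 to 0.0654). The neutrophil sums were 11.0 to 130 on NaPB arrays and 2.92 to 4.51 on control arrays. Such sums follow 1 marker where it is very bright, as S100a8 was at 126 on NaPB replicate 2. On NaPB replicate 4 S100a8 read 2.02 while the neutrophil sum was 11.0, so other neutrophil markers made up most of that sum. They also made up most of the sums on control arrays. These other neutrophil markers were not called. Among hepatocyte markers Serpina1a alone read 2089 to 3634 on NaPB arrays. Among the markers of bile duct, endothelial, stellate, lymphoid, kidney, pancreas and fat cells none was called by its brightest feature. In the fit over all features, 4 of the 10 features of Lep, the leptin gene of fat cells, were called and went opposite ways (3 lower and 1 higher, from −2.57 to 1.75), while its brightest feature differed by −0.27 (adjusted p = 0.846). At an unadjusted p below 0.05, 2 hepatocyte markers, 1 Kupffer cell marker and 1 stellate cell marker were lower, and 1 endothelial and 1 kidney marker were higher. No marker was at the floor (2 times the lowest value of an array) on all arrays. The part of these cell types in the members' values was not tested, and in whole liver RNA fewer cells of a type and less RNA per cell cannot be told apart.

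Beyond the 9 members, 11 lists of neighbouring pathways held 190 measured genes, of which 2 fell and none rose. That is 1.05% of them, beside 1.01% of all genes called, a share near that of all genes. Ppp1r3c fell. It encodes a glycogen-targeting subunit of protein phosphatase 1, which brings the phosphatase to glycogen and favours glycogen synthesis. It read 0.397, 0.110, 0.115 and 0.153 on NaPB replicates 1 to 4, against 1.03, 1.12, 0.983 and 1.10 on control replicates 1 to 4. All NaPB arrays lay far below the narrow range of the controls. Ppp1r3c had a log2 fold change of −2.67 ± 0.40 (SE; adjusted p = 0.0115 by limma), and the call held with any single array left out (−3.09 to −2.47). These are dim values, below the array median on NaPB replicates 2 to 4, so the size of the difference is uncertain. With a pseudocount of 1 it was −0.79, still called (limma adjusted p = 0.0109). Of the 15 measured genes of glycogen metabolism it was the only one called, and 10 were above 0 (median log2 0.14).

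Igf2, the gene of insulin-like growth factor 2, fell as well. It read 0.059, 0.057, 0.034 and 0.085 on NaPB replicates 1 to 4, against 0.419, 0.311, 0.139 and 0.272 on control replicates 1 to 4. On 3 of the 4 NaPB arrays it was within 2 times the lowest value of the array, so the difference, −2.24 ± 0.39 on the log2 scale (limma adjusted p = 0.0274), rests on values near the floor. The call was lost without control replicates 1, 2 or 4 or NaPB replicates 1, 2 or 3 (adjusted p = 0.0561 to 0.0866). The list of IGF axis genes outside the members held 12 measured genes, Igf2 among them, and Igf2 was its only called gene. Counting Igf2, 9 of the 12 were below 0 and 5 were lower at an unadjusted p below 0.05 (median log2 −0.60).

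In the list of other gluconeogenic and glucose output genes, 0 of 24 were called by limma, 12 were below 0, and at an unadjusted p below 0.05 a single gene was higher and another lower. The higher one was Slc37a4, the transporter that brings glucose-6-phosphate to the G6pc enzyme. It read 31.8, 34.5, 33.9 and 40.6 on NaPB replicates 1 to 4, against 22.2, 13.8, 25.1 and 12.5 on control replicates 1 to 4, and every NaPB array lay above every control. Slc37a4 had a log2 fold change of 0.99 ± 0.30 (SE; adjusted p = 0.21 by limma), opposite in sign to that of G6pc, and the second feature of Slc37a4 gave −0.25. Aqp9, the channel that admits glycerol to hepatocytes, read 1.45, 1.40, 1.23 and 1.18 on NaPB replicates 1 to 4, against 2.38, 1.47, 2.64 and 2.16 on control replicates 1 to 4 (log2 −0.69 ± 0.27, adjusted p = 0.399). Ldha, a lactate dehydrogenase gene, differed by −0.67 ± 0.31 (adjusted p = 0.514).

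**Figure D4:**
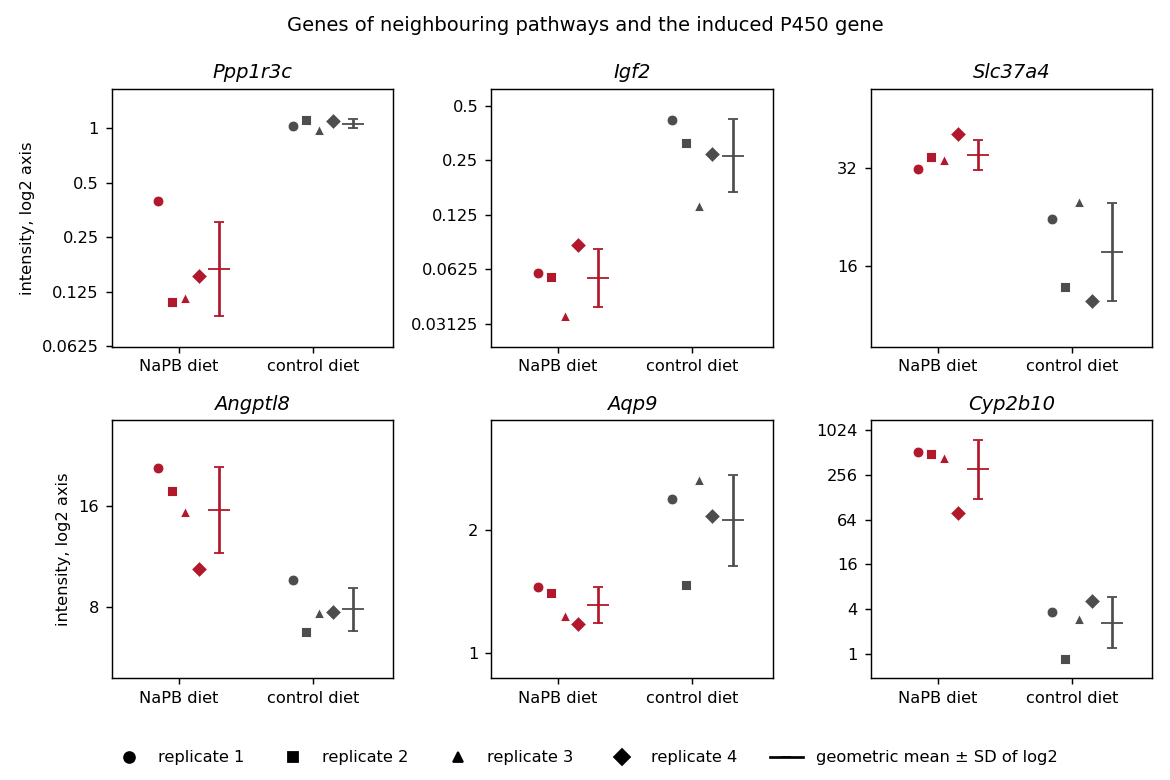
Scaled intensity (log2 axis) of 6 genes on 4 NaPB-diet arrays, left, and 4 control-diet arrays, right, with the geometric mean ± SD of log2 values. Ppp1r3c, Igf2 and Cyp2b10 were called, while Slc37a4, Angptl8 and Aqp9 were not, although their diets do not overlap.

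Glycolysis, the opposing route, showed no called gene among 21 measured (10 below 0, median log2 0.03), and 1 was higher at an unadjusted p below 0.05. That gene was Tkfc, a triokinase gene of fructose breakdown, with a log2 fold change of 0.78 ± 0.29 (adjusted p = 0.36). Gpi1 (0.59) and Hk1 (0.55) followed. Regulators of gluconeogenic transcription gave 0 called genes of 30, with 20 below 0 and a median log2 of −0.15, and 1 was lower at an unadjusted p below 0.05. The members of that list with the smallest p were the forkhead gene Foxo4 (−0.66 ± 0.27, adjusted p = 0.419), Klf9 (−0.73) and Foxa3 (−0.74). Of 16 other genes induced by FOXO1 none was called and none had an unadjusted p below 0.05. Their log2 fold changes had a median of −0.03, with Mttp at 0.80, Cited2 at −0.59 and the insulin receptor gene Insr at −0.37.

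Insulin receptor signalling gave 0 called genes of 29 (17 below 0, median log2 −0.03), with 1 higher and 2 lower at an unadjusted p below 0.05. Pik3cb, a catalytic subunit gene of PI3 kinase, read 0.241, 0.235, 0.253 and 0.0447 on NaPB replicates 1 to 4. It was at the floor on NaPB replicate 4 and on all 4 control arrays. Its log2 fold change was 1.49 ± 0.54 (adjusted p = 0.341), and without NaPB replicate 4 it was called (2.10, adjusted p = 0.0154). That call sets dim values against control values at the floor, so the size of the difference is uncertain. Rictor, of the mTORC2 complex, differed by −0.89 and Socs2, a suppressor of cytokine signalling, by −1.37 (adjusted p = 0.375 and 0.376). Of 16 genes of glucagon and cAMP signalling none was called and none had an unadjusted p below 0.05 (median log2 0.04), the smallest p being those of Adcy9 (−0.45), Pde3b (0.62) and Pde7a (−0.61).

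Insulin-induced genes of liver gave 0 called of 13, with 8 above 0, a median log2 of 0.33, and 3 higher and none lower at an unadjusted p below 0.05. Angptl8, a secreted regulator of lipoprotein lipase that feeding and insulin induce, read 20.7, 17.7, 15.4 and 10.4 on NaPB replicates 1 to 4, against 9.62, 6.75, 7.68 and 7.74 on control replicates 1 to 4. The diets did not overlap, and NaPB replicate 4 was nearest to the controls. Its log2 fold change was 0.98 ± 0.29 (SE; limma adjusted p = 0.195). It passed the test after quantile normalization (adjusted p = 0.0432), with array weights (0.0158) and without both control replicate 1 and NaPB replicate 4 (0.0327). The fatty acid elongase gene Elovl6 read 14.3, 10.9, 10.4 and 0.973 on NaPB replicates 1 to 4, against 1.22 to 1.80 on control arrays (2.01 ± 0.72, adjusted p = 0.327). Leaving out NaPB replicate 4 gave 2.91 for it, with an adjusted p of 0.00148. Pnpla3, a lipase gene that feeding induces, differed by 1.06 ± 0.42 (adjusted p = 0.4). In these 3 genes NaPB replicate 4 was the lowest NaPB array, as it was for Cyp2b10. Without that array 4 genes of the 11 lists rose (Elovl6, Pik3cb, Lcn2 and Thrsp, the last named after its values were seen), where none did with all arrays.

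No gene was called either in the lists of tyrosine and tryptophan breakdown, the pathway group of Tat, and of other glucocorticoid-responsive genes. Of 9 genes of tyrosine and tryptophan breakdown 7 were below 0 (median log2 −0.24), with none at an unadjusted p below 0.05 and the smallest p for Hgd (−0.52), Kmo (−0.34) and Kynu (−0.41). Without NaPB replicate 4 these were −0.06, −0.14 and 0.06. Of 12 other glucocorticoid-responsive genes none was called, 6 were below 0, and at an unadjusted p below 0.05 there were 3 higher and 1 lower (median log2 −0.20). Sgk1, a kinase gene, read 1.14, 0.881, 0.934 and 0.897 on NaPB replicates 1 to 4, against 0.357, 0.499, 0.583 and 0.402 on control replicates 1 to 4. Its diets did not overlap, and the log2 fold change was 1.08 ± 0.26 (SE; limma adjusted p = 0.103). The test was passed under 4 alternatives, with adjusted p of 0.039 after quantile normalization, 0.0408 without the genes below the median, 0.0413 with a pseudocount of 1 and 0.0245 with array weights. Lcn2, the lipocalin-2 gene, also an acute phase gene, read 18.5, 12.7, 8.40 and 216 on NaPB replicates 1 to 4, against 2.15 to 5.91 on control arrays (3.08 ± 0.86, adjusted p = 0.163), highest on NaPB replicate 4. Fkbp5, a chaperone gene of the glucocorticoid receptor, differed by 0.87 ± 0.33 (adjusted p = 0.369).

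For the 2 members with the smallest p, the genes of most similar pattern were sought among 10368 genes brighter than the median, by the mean absolute difference of centred log2 values over the 8 arrays. Nearest to Irs2 were Sdr9c7, a short-chain dehydrogenase gene (0.14 log2 units), and D11Wsu47e (0.15), where the median gene was at 0.66. Sdr9c7 read 1.37, 1.10, 1.35 and 1.60 on NaPB replicates 1 to 4, against 3.44, 2.84, 2.48 and 2.45 on control replicates 1 to 4. Nearest to G6pc were Dexi (0.14) and the hydroxysteroid dehydrogenase gene Hsd17b11 (0.15), where the median gene was at 0.56. Dexi read 3.81, 4.44, 3.39 and 2.36 on NaPB replicates 1 to 4, against 6.47, 6.06, 6.15 and 5.60 on control replicates 1 to 4. All 4 of these genes had diets that did not overlap. That follows largely from how they were chosen, by likeness on these same arrays to members whose diets did not overlap. None was called (limma adjusted p = 0.104 to 0.408).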

How the data were processed

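Mouse liver RNA was measured on 8 arrays, 4 per diet, which were Cy3 Agilent arrays scanned and quantified with Agilent Feature Extraction 10.7 per the submitters' processing notes. The authors deposited linear spot intensities, whose 75th percentile was 0.952 to 0.974 on every array, so they had been scaled within arrays. NaPB replicate 2 held only 3443 distinct values over its 62976 features, against 62756 to 62839 on the other 7 arrays, with up to 228 features sharing a value. How that array was prepared differently, if it was, is not stated. At the members' brightest features its next value lay within 0.0106 log2 units, and without it Irs2 differed by −0.96 and G6pc by −1.11. Background correction and the scaling rule are not stated in the sources used here. No value was missing. Gene symbols of 31465 features were updated through RefSeq tables of GRCm38.p6, 3282 of them changing, and the other 31511 carried none.

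The log2 values were fitted with diet as the only term in limma 3.58.1 (R 4.3.3, empirical Bayes, two-sided), with each gene taken by its brightest feature, and again for every feature. The ± values after fold changes are limma standard errors. In simulated data the changed genes were picked at random from all genes. There the fit recovered most of the larger changes tried but missed changes of 1 log2 unit. That size is close to the largest seen among the members, for which recovery was not tested separately. The floor is 2 times the lowest value of an array. Named genes are the members and, in each list, the called genes or, where there were none, the 3 with the smallest p; others are said to be named later. The members, lists, motifs and alternatives were chosen with earlier results of these data known, so no list is independent evidence. Alternatives changed the normalization, filter, pseudocount, summary of features, variance model, array weights, replicate block and arrays included. The number of arrays limits the precision. Python 3.11.15, pandas 2.3.3, numpy 2.4.6 and matplotlib 3.10.9 made the tables and figures.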

Additional observations from a re-analysis of the deposited data

Results flagged for a closer look

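In 7 of 84 groups of 4 arrays (the members' features and other genes named, log2 scale) 1 array stood apart from the other 3 by Dixon's criterion, which chance meets in about 1 of 20 groups. Not every cell type marker was among these groups, so the count does not cover all lists. Among the members this was Tat, at 34.8 on NaPB replicate 2 against 18.1 to 19.9 on the other NaPB arrays. NaPB replicate 4 was low for Pik3cb (0.0447, the other NaPB arrays 0.235 to 0.253), Elovl6 (0.973, the others 10.4 to 14.3), Hgd (1.11, the others 3.63 to 4.27), Kynu (0.750, the others 2.56 to 2.82) and Cyp2b10 (77.7, the others 430 to 521). Rictor was high on NaPB replicate 2, at 0.317, the other NaPB arrays being at 0.134 to 0.154.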

How the results depend on the processing

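Under 20 alternatives, no member was called higher in any and none lower in 19. With array weights 1 member, Irs2, was called lower (−1.001, limma adjusted p = 0.0363). Of 180 member fold changes under these alternatives 177 kept their sign and stayed uncalled, and Fbp1 changed sign without control replicate 3 (0.053) or 4 (0.02), with a range of −0.41 to 0.053 over single arrays left out. The members' median ran from −0.60 to −0.21 with 1 array left out and from −0.58 to −0.46 otherwise. No feature was called in 17 alternatives. The count of lower genes in the pathway lists, 2 with all arrays, was 1 to 2 with 1 array left out, 1 without the dimmest quartile of genes or with a pseudocount of 1, 0 without the genes below the median, the filters leaving out Igf2 or both genes, and 3 after quantile normalization, which added Ghr. The count of higher genes, 0 as reported, was 2 after quantile normalization (Angptl8 and Sgk1), 1 without the genes below the median and 1 with a pseudocount of 1 (Sgk1 in both), 6 with array weights, 0 to 4 with 1 array left out, and 7 without control replicate 1 and NaPB replicate 4. The cause was not tested. With the replicate number as a block, 0 members and 2 lower list genes were called, as without it. Deviations of same-numbered arrays correlated at 0.23, −0.29, 0.04 and 0.23, and 2 of 8 arrays correlated best with their own number, so the numbers were not taken as pairs.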
